A study of Neurospora crassa OR74A with 26 samples.

Results

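The transfer of Neurospora crassa from sucrose to Avicel (microcrystalline cellulose) was followed here in the strains that lack either of 2 cellulase regulators, to ask which part of the response remains without them. The 8 libraries of the deletion strains were used, of 26 libraries in the series: Avicel and sucrose, at 1 h and 4 h, in the clr-1 deletion strain and in the clr-2 deletion strain. Libraries were chosen by genotype, medium and time alone, and each Avicel library was set against the sucrose library of its own strain and time. In FGSC 11029 the coding sequence of clr-1 (NCU07705) is replaced by a cassette for hygromycin resistance, and FGSC 15835 carries the same replacement at clr-2 (NCU08042). Cultures of all strains were started from conidia, grown for 16 h with sucrose, washed and moved to new medium with Avicel, with sucrose or without a carbon source. The wild type, FGSC 2489, served for comparison, with 3 libraries for Avicel and 3 for sucrose at each time, and 3 without carbon at 4 h. Each deletion group is 1 library, so the 2 strains stand in for replicates. Within the deletion strains, p-values weigh the mean change against the spread left between the strains. A gene can therefore pass with a wide gap between them. In comparisons with wild type the spread also includes that of the wild-type replicates. Each strain lacks 1 regulator and keeps the other gene; a strain lacking both was not analysed here.

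CLR-1 and CLR-2 are zinc binuclear cluster transcription factors that the fungus needs for growth on cellulose. Small sugars released from cellulose are sensed through cellodextrin transport, CLR-1 becomes active and raises clr-2, and CLR-2 drives the genes of secreted cellulases. Independently of these factors, loss of sucrose lifts carbon catabolite repression, in which CRE-1 takes part, and xylan-degrading enzymes are governed by a separate regulator, XLR-1. Starved hyphae also lower the production of ribosomes and amino acids and can start to form conidia, the asexual spores.

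Values are FPKM (fragments per kilobase of transcript, scaled to the fragments mapped in each library) summed to genes, so a level is relative to the other RNA of the same library. All log2 changes are differences of log2(FPKM + 1), averaged over both strains, with the standard error (SE) of limma's fit, and "rose" and "fell" are used of genes whose two-sided limma p, adjusted by the Benjamini-Hochberg method over all tested genes, is under 0.05. A gene was tested where its mean over the libraries of the fit reached 1 FPKM. The deletion libraries hold 36 to 64.1 M recovered reads of 50 bases each. The strains resembled each other closely within a medium and time, with Pearson r over genes of 0.991 to 0.995. Transcripts listed at 0 numbered 1039 to 1243 on Avicel and 1596 to 1690 on sucrose. The mating-type gene matA-1 was listed at 0 in all 8 deletion libraries and was above 0 in 17 of 18 wild-type libraries. Likewise ccg-4, a pheromone precursor gene of mating type A, was above 0 in all 18 wild-type libraries and in 0 deletion libraries. Deletion and wild-type strains thus differ at more than the deleted gene, and in every comparison with wild type these differences cannot be told apart from that of the deletion.

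The deleted genes were read first. clr-2, on supercontig 4 at 4001189 to 4004631 in the files' coordinates, was listed at 0 in all 4 libraries of the clr-2 deletion strain. clr-1, on supercontig 4 at 2149156 to 2153337, was low but not at 0 in the strain deleted for it, at 6.13 FPKM with Avicel against 13 with sucrose after 1 h, and 11 against 23.1 after 4 h. These levels rest on 228 to 472 recovered reads per library. Where clr-2 was deleted, clr-1 stood at 357 FPKM with Avicel against 29.3 with sucrose after 1 h, and at 507 against 47.6 after 4 h, so it was higher on Avicel in that strain at both times. Where clr-1 was deleted, clr-2 was at 14 FPKM with Avicel against 1.41 with sucrose after 1 h, and at 15.1 against 1.18 after 4 h. In wild type on Avicel at 4 h clr-2 rose by 8.57 log2 units; its rise over both deletion strains was smaller by 7.13 (adjusted p = 0.00011), a value that the clr-2 deletion itself enters.

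In the fit of the 8 deletion libraries, most tested genes passed as changed on Avicel. At 1 h 6320 of 8550 tested genes changed, 73.9%, with 3880 higher on Avicel (45.4%) and 2440 lower (28.5%). At 4 h 6462 changed, 75.6%, with 3740 higher (43.7%) and 2722 lower (31.8%). Large changes grew in number with time: 142 genes rose at least 16-fold at 1 h (1.66%) and 350 at 4 h (4.09%), and 175 (2.05%) and 221 (2.58%) fell by as much. Read strain by strain, the responses had r = 0.966 at 1 h and 0.965 at 4 h across genes, as a description, and the same sign for 92.7% and 91.3% of the 8550 genes. Both responses of a strain are taken from its own 2 libraries, and genes are not independent replicates. When the spread was taken from wild-type replicates in a fit over all 26 libraries, fewer genes passed than did not. At 1 h 3604 passed and 4946 did not, and at 4 h 4012 passed and 4538 did not. Against these shares, a call on its own says little about a gene, and the size of the change and the level carry the description below.

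**Figure D1:**
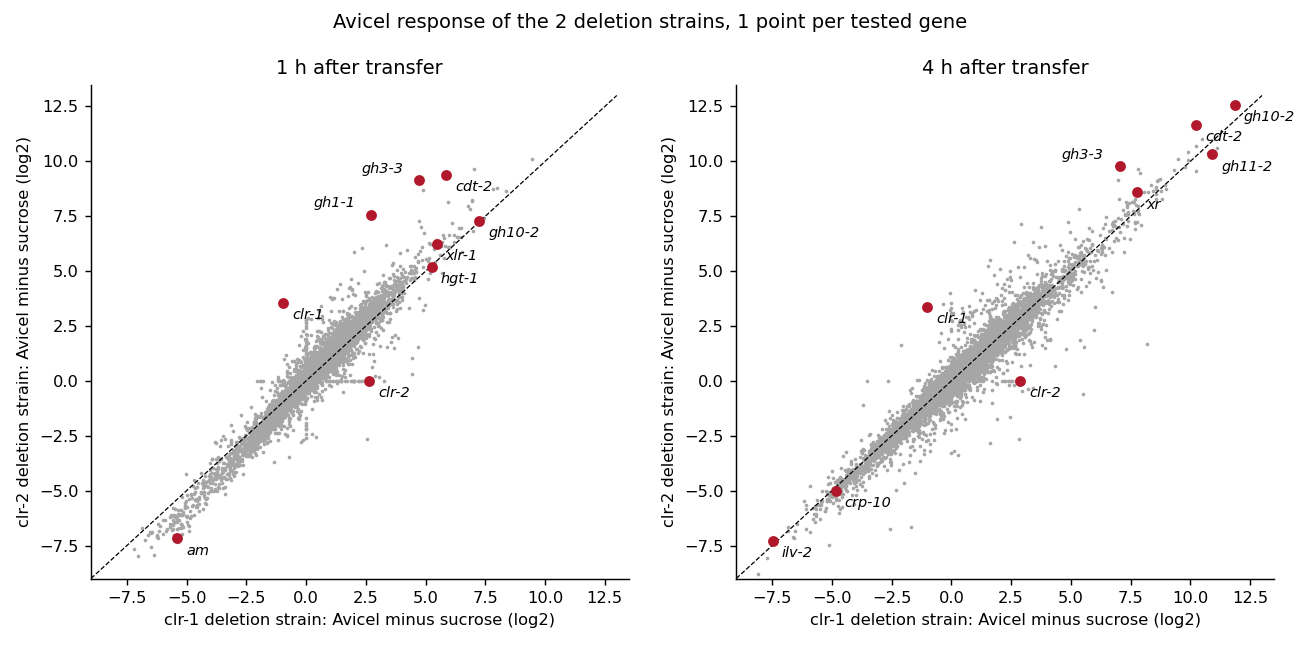
Log2 change on Avicel against sucrose in the clr-1 deletion strain (horizontal axis) and in the clr-2 deletion strain (vertical axis), at 1 h and 4 h, with 1 grey point per tested gene, named genes in red and the line of equality dashed. Most points follow the line; gh3-3, gh1-1 and cdt-2 lie above it at 1 h, clr-1 above and clr-2 below it at both times.

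Of all tested genes, gh10-2, for the breakdown of the hemicellulose xylan, had the largest log2 rise at 4 h. gh10-2, an endoxylanase of glycoside hydrolase family 10 on supercontig 3 at 4598535 to 4599913, was at 39186 FPKM in the clr-1 deletion strain and 48631 in the clr-2 deletion strain on Avicel at 4 h. On sucrose the same strains had 9.48 and 7.05 FPKM. It had already reached 483 and 431 FPKM on Avicel at 1 h, against 2.20 and 1.79 on sucrose. Both Avicel libraries lay far above both sucrose libraries at each time, and the rise was 7.26 log2 units at 1 h (SE 0.17, adjusted p = 1.2e-05) and 12.21 at 4 h (SE 0.17, adjusted p = 1.5e-06). gh11-2, an endoxylanase of family 11, went from 1.76 and 1.27 FPKM on sucrose to 81 and 20 on Avicel at 1 h, the clr-1 deletion strain given first here and below. At 4 h it stood at 7716 and 5807 FPKM against 3.01 and 3.55, a rise of 10.62 (SE 0.48, adjusted p = 1.2e-05). For both xylanases the Avicel and sucrose libraries did not overlap at either time, but no overlap was itself a rule for naming large changes.

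Of the 9 hemicellulase genes with a symbol, 8 were tested, gh10-4 being too low at 0 to 2.89 FPKM. 4 of the 8 rose at 1 h and 7 at 4 h, 0 fell, and the median change was 1.60 at 1 h and 5.11 at 4 h, beside 0.28 and 0.19 over all tested genes. gh3-8, a family 3 hydrolase gene, was late: it had 1.96 and 2.22 FPKM on Avicel at 1 h, against 1.36 and 0.62 on sucrose, and 297 and 307 on Avicel at 4 h against 1.49 and 2.37. gh3-7 of the same family went from 7.54 and 7.17 FPKM on Avicel at 1 h to 90.6 and 88.5 at 4 h, with sucrose between 0 and 1.01. The xylanase gh11-1 reached only 60.8 and 35.0 FPKM at 4 h, and gh10-1 14.1 and 3.74, with sucrose listed at 0 in both strains. gh10-3 had 15.7 and 8.31 FPKM on Avicel and 12.2 and 7.97 on sucrose at 4 h and did not pass (adjusted p = 0.62). gh2-1, of family 2, rose at both times, by 2.55 and 1.77.

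The genes of 2 enzymes that metabolise xylose inside the cell also rose. xr, xylose reductase, was at 27824 and 27882 FPKM on Avicel at 4 h and at 125 and 71.5 on sucrose. At 1 h it was at 744 and 661 against 48.8 and 43.0. Its rise grew from 3.91 to 8.19 (SE 0.19 at both times, adjusted p = 2.5e-06 at 4 h). No Avicel library overlapped a sucrose library, a state that the rule for naming large changes also asked for. xyk-1, xylulokinase, which acts later in the same path, reached 1999 and 1798 FPKM at 4 h against 90.0 and 67.1, a rise of 4.59. Both genes of the pentose list that have a symbol therefore rose at both times. The list was fixed with 5 members, and 3 without a symbol were left out. The regulator xlr-1 was high on Avicel from 1 h, at 326 and 428 FPKM against 6.41 and 4.67, and stayed at 325 and 469 against 9.56 and 8.58 at 4 h. Its rise was 5.85 (SE 0.24) at 1 h and 5.28 (SE 0.24) at 4 h (adjusted p = 1.3e-05), and the difference between times did not pass (adjusted p = 0.22).

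Sugar transport responded in both strains and partly at different speeds. hgt-1, a high-affinity glucose transporter, was highest at 1 h, at 55770 and 62217 FPKM on Avicel against 1452 and 1701 on sucrose. By 4 h it had 6921 and 6125 FPKM against 85.7 and 102.6; both media were lower than at 1 h, and its log2 rise was 5.23 at 1 h and 6.10 at 4 h. cdt-2, a cellodextrin transporter on supercontig 1 at 318872 to 321079, had 534 and 3530 FPKM on Avicel at 1 h against 8.29 and 4.24, and 13218 and 29032 at 4 h against 10.0 and 7.95. Its rise of 10.95 at 4 h (SE 0.80, adjusted p = 5.9e-05) came with a clear gap between strains, the clr-2 deletion strain being higher on Avicel at both times. cdt-1, the other cellodextrin transporter, was at 561 and 2138 FPKM at 1 h and 852 and 1517 at 4 h on Avicel, with sucrose at 29.0 to 47.9. All 4 listed transporter genes with a symbol rose at both times, with medians of 5.17 and 5.40.

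**Figure D2:**
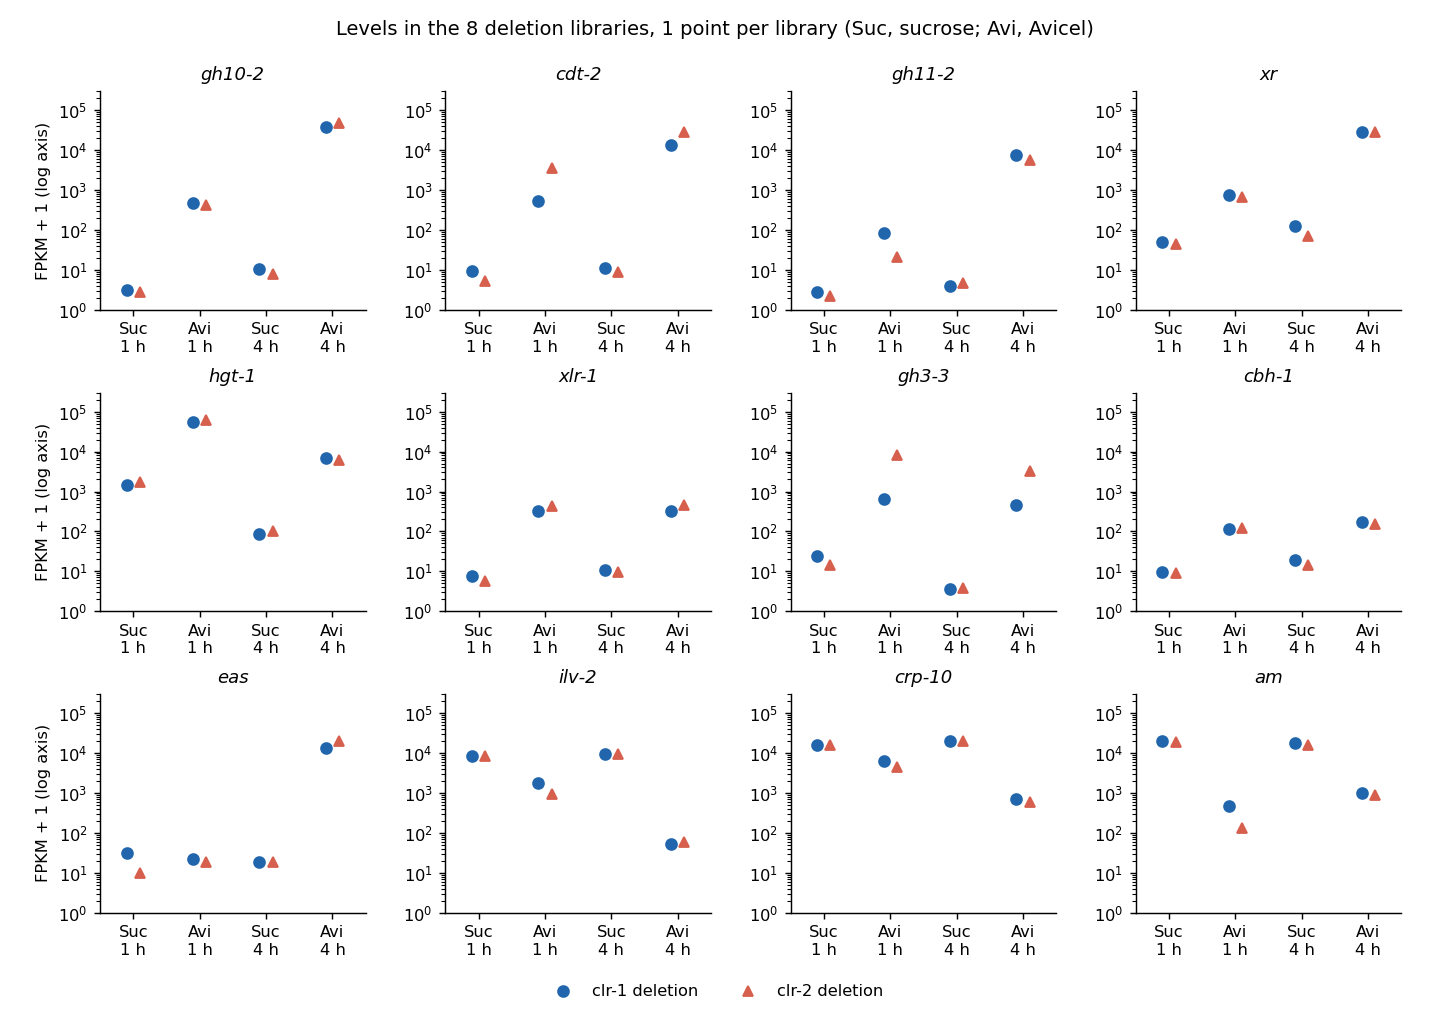
FPKM + 1 on a logarithmic axis for 12 genes in the 8 deletion libraries, by medium and time; blue circles are the clr-1 deletion strain and red triangles the clr-2 deletion strain, 1 library per point. The xylanases, xr and eas are highest on Avicel at 4 h, hgt-1 on Avicel at 1 h, and ilv-2 and crp-10 are lowest on Avicel at 4 h.

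Cellulase genes rose in the deletion strains, to levels that differed widely between genes and, for some, between strains. Of 11 with a symbol, 10 were tested and gh7-4 was listed at 0 in all 8 libraries. All 10 rose at 1 h and at 4 h, with a median of 3.12 at both times. cbh-1, the main cellobiohydrolase, was at 168 and 149 FPKM on Avicel at 4 h and 18.5 and 13.4 on sucrose (rise 3.25, SE 0.16, adjusted p = 1.5e-05). gh6-2, the second cellobiohydrolase, was at 127 and 122 FPKM against 39.5 and 52.7, and gh5-1, an endoglucanase, at 32.7 and 26.2 with sucrose listed at 0 in both strains. In wild type on Avicel at 4 h cbh-1 was at 125900 ± 53300 FPKM (SD, n = 3). The levels of the 2 strains on Avicel lay side by side for these 3 genes.

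A few cellulose genes were split by strain. The beta-glucosidase gh3-3, which cuts cellobiose to glucose, was at 633 FPKM in the clr-1 deletion strain and 8086 in the clr-2 deletion strain on Avicel at 1 h, and at 461 and 3354 at 4 h. On sucrose it was between 2.50 and 22.9 FPKM in both. gh1-1, another beta-glucosidase, was at 543 and 5632 FPKM at 1 h and 751 and 2743 at 4 h, and gh6-3, of the same family as gh6-2, at 67.6 and 335 and at 101 and 380. These 3 were the cellulase genes at least 2-fold higher in the clr-2 deletion strain at each time, 0 were higher in the clr-1 deletion strain by as much, and 8 of 11 lay within 2-fold. Among the hemicellulase genes 2 of 9 went the other way at each time. With 1 library per strain and condition, these gaps between strains have no test. Over 7945 genes compared, 6 were at least 4-fold higher in the clr-2 deletion strain on Avicel at both times and 5 lower there by as much. Those with a symbol are clr-1 and gh3-3 among the higher and clr-2 among the lower. clr-1 and clr-2 are the deleted genes, so their gaps include the deletions themselves. NCU09968, NCU09969 and NCU11930, also among the lower, were listed at 0 in the clr-2 deletion strain on sucrose too.

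Lytic polysaccharide monooxygenases, which cut crystalline cellulose by oxidation, and their electron donor cellobiose dehydrogenase form a second list. 10 of 11 were tested; 7 rose at 1 h and 9 rose and 1 fell at 4 h, with medians of 1.60 and 1.48. gh61-6 reached 168 and 186 FPKM on Avicel at 4 h against 13.6 and 10.1, and cdh-1 18.1 and 22.6 against 6.39 and 7.42. gh61-9, the highest of the list on sucrose, was at 101 and 115 FPKM on Avicel against 170 and 129, a log2 change of -0.46 that did not pass in the fit over 26 libraries (adjusted p = 0.56). gh61-4 was listed at 0 in all 8 libraries. In the fit over 26 libraries, 9 of 10 cellulases rose at 4 h and 7 at 1 h, and of this list 7 rose at 4 h and 4 at 1 h.

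Starch and pectin genes, whose substrates were absent from the medium, also responded. gla-1, a glucoamylase, was at 12884 and 10746 FPKM on Avicel at 1 h against 1389 and 720, and gla-2 at 682 and 870 against 70.7 and 56.6. gh13-1, an alpha-amylase, was late, at 8691 and 8349 FPKM on Avicel at 4 h against 1898 and 1950. 5 of 5 starch genes rose at 1 h, or 3 in the fit over 26 libraries, and 4 at 4 h. Of 2 pectin genes, both of family 28, gh28-2 was at 502 and 423 FPKM at 4 h with sucrose listed at 0, and gh28-1 fell at both times (-2.31 at 4 h). tre-1, trehalase, was at 2807 and 2799 FPKM at 1 h against 50.9 and 30.1; it rose at both times, while gsy-1, glycogen synthase, and gnn, glycogenin, rose at 1 h and fell at 4 h. In the fit over 26 libraries 2 of these 3 genes rose at 1 h, and at 4 h 1 rose and 0 fell.

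Regulator genes were mostly lower on Avicel: 5 of 9 fell and 2 rose at each time. cre-1 was at 77.6 and 78.4 FPKM on Avicel at 1 h against 270 and 261, and at 122 and 80.9 at 4 h against 664 and 642 (log2 change -2.70, adjusted p = 3.1e-05). nit-2, the activator of nitrogen catabolism, cpc-1, the activator of amino acid synthesis, and cys-3, that of sulfur uptake, fell at both times. vib-1 fell by 2.30 at 1 h and fell by 0.71 at 4 h. col-26 and xlr-1 were the genes that rose. clr-1 and clr-2 did not pass over the mean of the strains, a mean that includes the strain deleted for each gene. In the fit over 26 libraries 4 fell and 3 rose at each time. There clr-1 and clr-2 passed as higher at both times (adjusted p = 0.04 and 0.014 at 4 h), and col-26 did not pass (adjusted p = 0.23 at 4 h).

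Of the gene lists, amino acid synthesis held the most genes that fell, and it was also the longest list. Of 59 genes, 48 fell and 2 rose at 1 h, and 55 fell and 1 rose at 4 h, with the median moving from -1.01 to -3.28. With the spread of all 26 libraries, 28 fell at 1 h and 52 at 4 h. ilv-2, of valine and isoleucine synthesis, was at 1751 and 919 FPKM on Avicel at 1 h against 8398 and 8465, and at 51.8 and 57.6 at 4 h against 9333 and 9209. Avicel was below sucrose in both strains at both times, and the log2 change was -2.73 at 1 h and -7.38 at 4 h (SE 0.26, adjusted p = 6.5e-06). eth-1, S-adenosylmethionine synthetase, was at 79.2 and 80.7 FPKM at 4 h against 7015 and 7443. Other genes of the group fell by more than 5 log2 units at 4 h. These were lys-3 of lysine, arg-3, arg-5 and arg-10 of arginine, and leu-2 of leucine synthesis. All 5 had no overlap between media, which was itself a rule for naming large changes. ilv-5 rose at 4 h, by 0.87, and arg-14 and arg-15 at 1 h. Of 8 nitrogen genes, 7 fell at 1 h and 6 at 4 h: am, the glutamate dehydrogenase that assimilates ammonium, was at 475 and 130 FPKM on Avicel at 1 h against 20006 and 18850, a log2 change of -6.28 (SE 0.44, adjusted p = 7.6e-05).

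All 7 ribosomal protein genes with a symbol fell at both times, within a narrow range of -1.38 to -1.81 at 1 h and -4.30 to -4.93 at 4 h. Of these 7, 3 fell at 1 h and 7 at 4 h in the fit over 26 libraries. crp-10 was at 6204 and 4365 FPKM on Avicel at 1 h against 16297 and 16184, and at 689 and 602 at 4 h against 19749 and 19622. All 18 genes of mitochondrial protein import fell at both times, with medians of -2.06 and -2.08, and the 2 changes differed with time for only 3 of them. tom40, the channel of the outer membrane, was at 286 and 160 FPKM on Avicel at 1 h against 1266 and 1187 and at 122 and 124 at 4 h against 946 and 1092. Heat shock genes split: 4 of 6 fell at each time, led by hsp70-2 with 168 and 132 FPKM at 4 h against 16624 and 18495, while hsp30 and hsp98 did not pass. In bulk RNA, fewer cells of a type and less RNA per cell cannot be told apart, and a fall of very abundant transcripts such as these also changes the share left to all others.

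Energy metabolism changed in several directions. All 7 glycolysis genes fell at 4 h (median -2.20) and 4 at 1 h, with gpd-1, glyceraldehyde-3-phosphate dehydrogenase, at 21458 and 13167 FPKM at 4 h against 65004 and 55494. The fermentation gene cfp, pyruvate decarboxylase, fell at both times (-4.48 at 4 h), whereas the alcohol dehydrogenase adh-1 rose, from 3177 and 3437 to 40044 and 51567 FPKM at 1 h. adh-1 passed at 1 h alone and cfp at neither time in the fit over 26 libraries. 4 of 5 genes of the glyoxylate cycle and gluconeogenesis rose at 1 h. At 4 h 3 rose, and acu-5, acetyl-CoA synthetase, changed by 1.49 at 1 h and by -1.49 at 4 h; 1 of these 5 genes rose at 4 h in the fit over 26 libraries. acu-6, phosphoenolpyruvate carboxykinase, rose at 4 h with a wide gap between strains, at 6493 and 981 FPKM on Avicel against 136 and 332. Of 17 genes of the tricarboxylic acid cycle, 11 fell and 3 rose at 1 h, or 7 and 2 in the fit over 26 libraries. At 4 h 6 fell and 2 rose, where 31.8% of all tested genes fell and 43.7% rose. Respiratory complex I showed small changes, with 20 of 29 genes lower and 1 higher at 4 h (median -0.40); at 1 h 3 were higher with a median of 0.02, which turned to -0.11 after rescaling of the libraries. In the fit over 26 libraries 10 fell and 0 rose at 4 h, and 0 passed at 1 h.

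Genes of several organelles had small changes, and many of these calls were lost in the fit over 26 libraries. All 14 genes of the vacuolar proton pump rose at 1 h (median 0.55), with vma-8 at 1039 and 1149 FPKM against 522 and 510, and 13 passed after rescaling, but 3 in the fit over 26 libraries. At 4 h 4 rose and 2 fell, or 1 and 0 in that fit, where 43.7% of all tested genes rose and 31.8% fell. Peroxisome biogenesis genes rose in 14 of 20 cases at 1 h, where 1 fell, beside 45.4% and 28.5% of all tested genes. At 4 h 10 rose and 4 fell, beside 43.7% and 31.8% of all tested genes. The rises were led by pex11, which governs peroxisome number, at 1393 and 1834 FPKM against 262 and 246 at 1 h. The fit over 26 libraries left 8 higher at 1 h, and 4 higher and 2 lower at 4 h. Proteasome genes were little changed at 1 h, where 4 of 16 were higher, beside 45.4% of all tested genes. Their median was 0.09, or -0.04 after rescaling. At 4 h 14 fell (median -0.49), beside 31.8% of all tested genes. Of the 16 proteasome genes, 0 passed at 1 h and 1 fell at 4 h in that fit. All 7 genes of the quinic acid (qa) cluster, which serves the use of quinate as a carbon source, rose at 1 h (median 1.94); at 4 h 5 rose and 1 fell. That fit had 4 higher at 1 h, and 2 higher and 0 lower at 4 h. grp78, the chaperone of the endoplasmic reticulum, rose by 1.15 at 1 h, a call lost in the fit over 26 libraries, and was at 3272 and 3418 FPKM at 4 h against 3744 and 2905.

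Markers of conidiation were high on Avicel at 4 h. All 7 rose at 4 h and 6 at 1 h, with medians of 5.76 and 2.52. In the fit over 26 libraries 7 rose at 4 h and 4 at 1 h. eas, the hydrophobin of the spore surface, was at 20.5 and 17.4 FPKM on Avicel at 1 h against 31.1 and 8.84, and at 13085 and 20484 at 4 h against 17.2 and 17.8. con-10, a conidiation gene, was at 912 and 1040 FPKM at 4 h against 4.53 and 3.27. The summed level of the 7 markers was 161418 and 170148 FPKM on Avicel at 4 h, 23444 and 28426 on Avicel at 1 h and 3490 to 6023 on sucrose, with con-13 at 0 in the sucrose libraries and no marker at 0 on Avicel. Most of that sum is ccg-1, at 145774 and 147084 FPKM on Avicel at 4 h. These markers moved with medium in the same libraries as every gene group above, and their part in those changes was not tested. nop-1, an opsin, rose by 7.74 at 4 h. Of 8 light and clock genes 5 rose and 1, cry, fell at 4 h, with 4 higher at 1 h. Over all tested genes 43.7% rose and 31.8% fell at 4 h, and 45.4% rose at 1 h. In the fit over 26 libraries 3 of the 8 rose and 0 fell at 4 h, and 1 rose at 1 h.

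**Figure D3:**
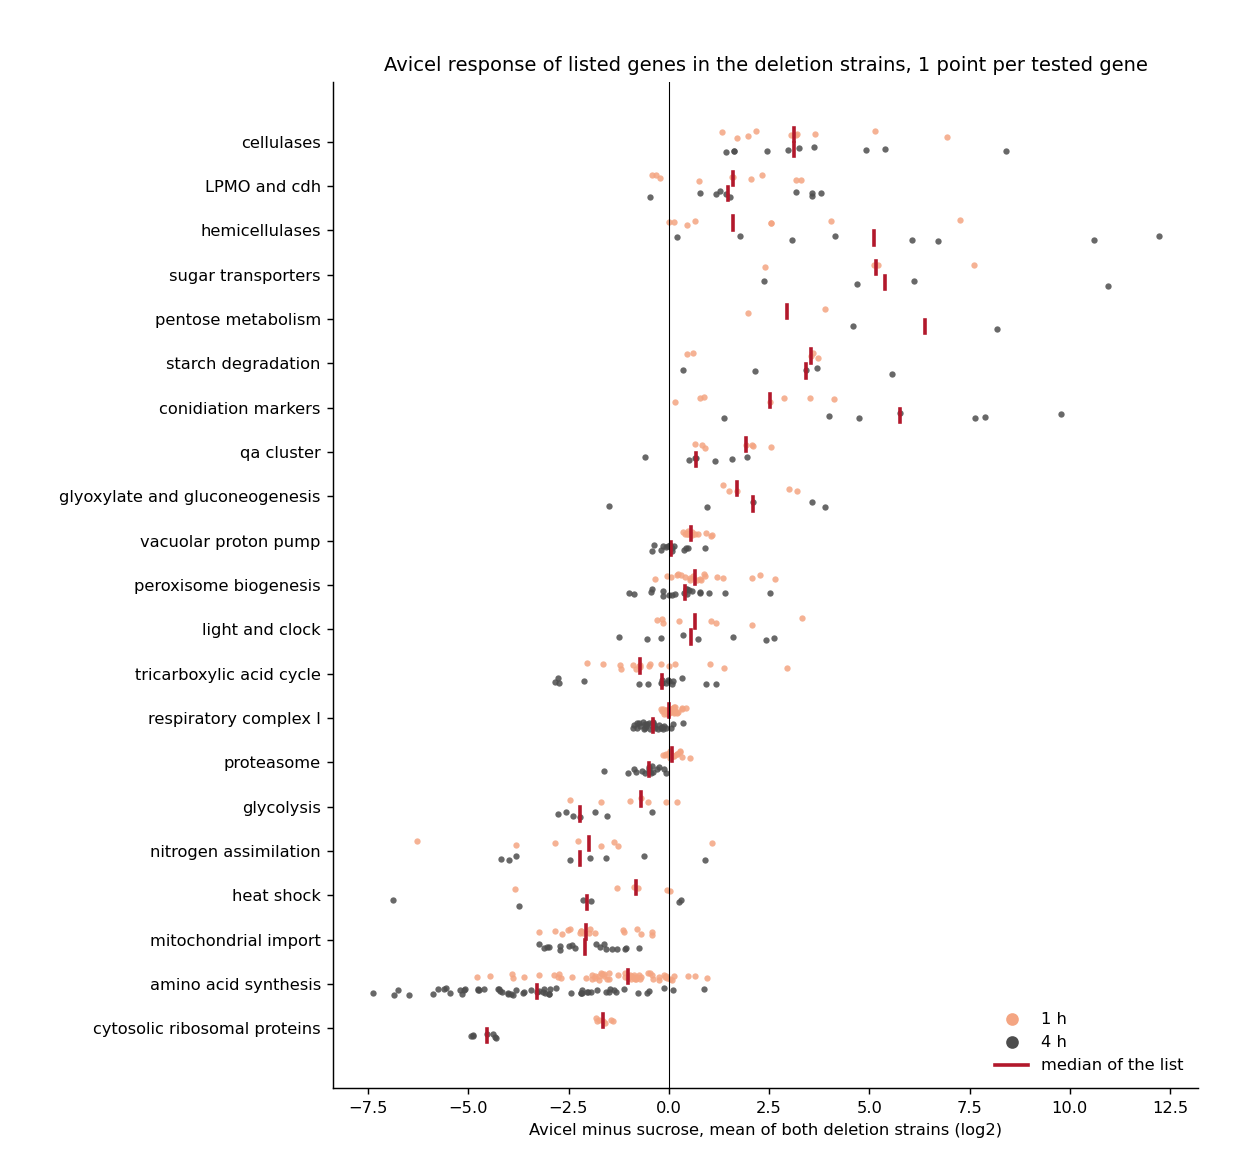
Log2 change on Avicel against sucrose, averaged over both deletion strains, for the tested members of 21 gene lists at 1 h (orange) and 4 h (grey), 1 point per gene, with the median of each list as a red bar. Hemicellulases, pentose metabolism and conidiation markers lie further right at 4 h than at 1 h, and amino acid synthesis, glycolysis and ribosomal proteins further left.

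The size of the response differed between 4 h and 1 h for 3964 of 8550 genes (46.4%), 1860 in the direction of a higher value at 4 h (21.8%) and 2104 of a lower one (24.6%). Of the 1860, 1177 were higher on Avicel at 4 h, and 116 of these were lower on Avicel at 1 h. Of the 2104, 1267 were lower on Avicel at 4 h, and 251 of these were higher at 1 h. The largest gains among genes with a symbol and at least 10 FPKM in the higher medium were in eas (9.63), gh11-2 (6.56), gh3-8 (6.05), gh10-2 (4.96) and ccg-9 (4.89), a trehalose synthase gene. By the same rule the largest losses were in chol-1 (-4.77), of phosphatidylcholine synthesis, inl (-4.70), inositol-1-phosphate synthase, ilv-2 (-4.65), arg-10 (-4.43) and leu-2 (-4.39). inl was at 713 and 620 FPKM on Avicel at 1 h against 1252 and 1346, and at 218 and 176 at 4 h against 9726 and 10142, so its fall came with a rise on sucrose. chol-1 also changed on sucrose, from 58.7 and 74.9 FPKM at 1 h to 1014 and 924 at 4 h. 469 genes passed this test with the wild-type spread.

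At 4 h most listed cellulase, monooxygenase and cellobiose dehydrogenase genes responded less to Avicel in the deletion strains than in wild type. The response to Avicel differed for 128 of 8548 genes (1.5%), 108 smaller (1.26%) and 20 larger (0.234%) in the deletion strains. Most of the 128 genes are outside the gene lists counted below. Here and below, smaller and larger refer to the signed log2 change, so a larger response can be a weaker fall. Of the 20, 11 fell on Avicel in wild type and 6 rose. With the replicate number of the wild-type libraries as a block, 192 genes passed, and without replicate 1 of each wild-type Avicel and sucrose group, whose reads are shorter than 50 bases, 1904 did, 1020 smaller and 884 larger. Of the 108 genes, 102 rose on Avicel in wild type, where 36.7% of all tested genes rose. The difference contains the wild-type response, so picking genes by it favours those that rose in wild type. Of the 102, 93 were tested within the deletion strains, where 64 still rose and 18 fell. 8 of 11 cellulases and 7 of 11 monooxygenase and cellobiose dehydrogenase genes had a smaller response, with median differences of -5.46 and -7.17 beside 0.02 over all genes. The largest were in gh61-4 (-13.43), gh10-1 (-9.98), gh61-7 (-9.79), gh61-5 (-9.27) and cbh-1 (-8.98, SE 0.76, adjusted p = 8.9e-06); those of gh61-4 and gh10-1 depend on the pseudocount, since libraries are listed at 0. Of the hemicellulases 3 of 8 were smaller, gh10-1 with gh11-1 (-6.14) and gh2-1 (-4.46), and of the transporters cdt-1 (-3.91, adjusted p = 0.016), a call lost under 5 alternatives.

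The xylanase gh10-2 was at 38120 ± 22500 FPKM in wild type on Avicel at 4 h (SD, n = 3) and at 17 ± 22.9 on sucrose, and its response differed from that of the deletion strains by 0.14 (SE 1.69, adjusted p = 0.99). That SE is wide, and the test does not show that the responses are alike. xr was at 27570 ± 16500 FPKM in wild type, with a difference of -0.14 (SE 1.03). cdt-2 was at 56480 ± 19700 FPKM, with a difference of -0.76 (SE 1.24), and gh11-2 at 104700 ± 21100, with one of -3.15 (SE 1.78, adjusted p = 0.61). gh3-3 and gh1-1 had differences of -2.11 and -5.46 with SE of 1.65 and 1.91 and did not pass; gh1-1 passed with the 50-base libraries (adjusted p = 0.02). For xlr-1 the difference was -1.64 (adjusted p = 0.14, or 0.004 with the 50-base libraries).

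Over 8512 genes tested in both fits, the responses of the deletion strains and of wild type at 4 h had r = 0.907 across genes, and 0.949 at 1 h. These comparisons share no library. At least 16-fold rises in wild type at 4 h made up 4.97% of the genes tested there, and 414 of those genes were tested in both fits. Of the 414, 409 rose in the deletion strains, 254 of them at least 16-fold, 1 fell and 4 did not pass; medians were 5.37 in wild type and 4.68 in the deletion strains. 56 of the 414 had a response called smaller. At 1 h 0 of 8548 genes (0%) had a response that passed as different from wild type in limma, 679 had an unadjusted p under 0.05, and 777 passed with the 50-base libraries. Cellulases at 1 h had a median difference of -0.51 with 0 of 11 called.

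**Figure D4:**
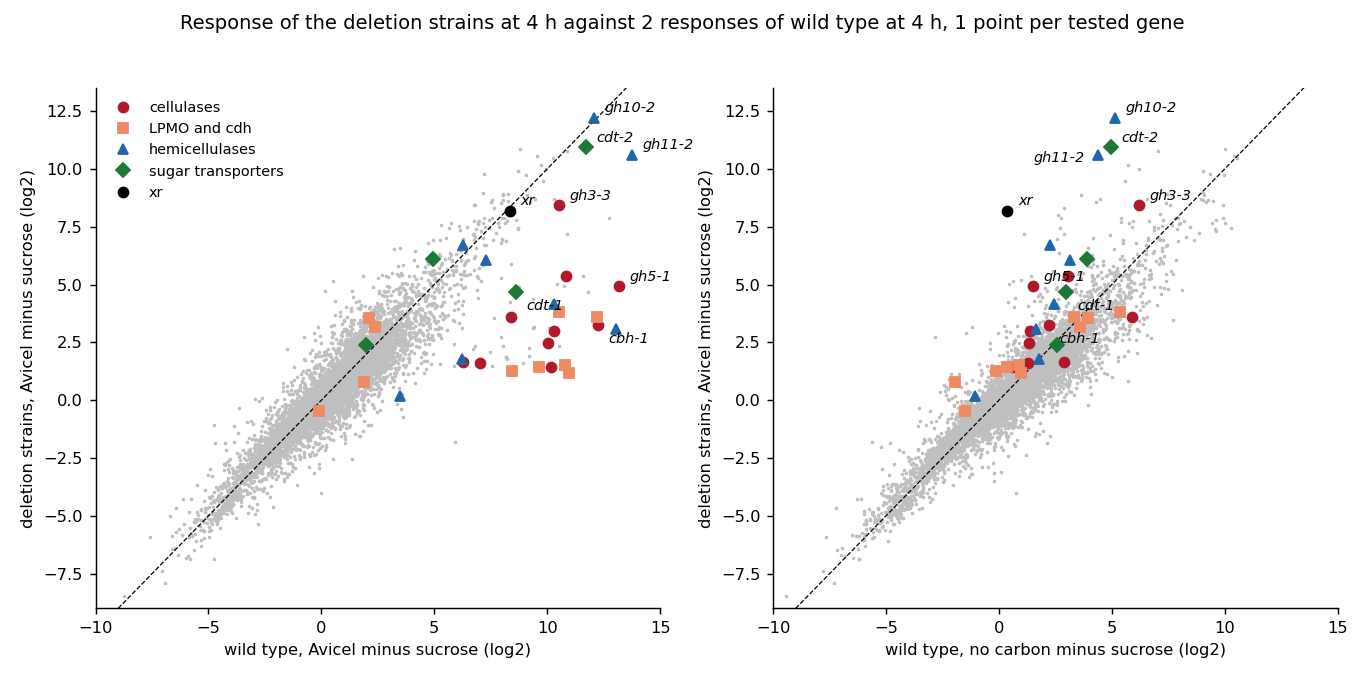
Log2 change on Avicel in the deletion strains at 4 h (vertical axes) against the change on Avicel (left) and without carbon (right) in wild type at 4 h, 1 point per tested gene, with 4 gene lists and xr in colour or black and the line of equality dashed. Most cellulases lie below the line on the left; gh10-2, cdt-2, gh11-2 and xr lie near it or less far below on the left and above it on the right.

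xr and cdt-2 rose more on Avicel in the deletion strains than in wild type after the loss of carbon. Wild type without carbon at 4 h, against its own sucrose, changed much like the deletion strains on Avicel, with r = 0.927 over 8540 genes, and the 2 responses differed for 73 of 8616 genes (0.847%), 39 larger (0.453%) and 34 smaller (0.395%) on Avicel. After rescaling of the libraries the split was 46 larger to 26 smaller, with the replicate block 52 to 60, or 112 genes, and with the 50-base libraries 1342 genes passed. Of the 39, 32 rose on Avicel in the deletion strains, where 43.7% of all tested genes rose. The difference contains that response, so picking genes by it favours those that rose there. The log2 rise of xr was 8.19 on Avicel and 0.38 without carbon, where it was at 92.0 ± 18.8 FPKM (SD, n = 3), a difference of 7.81 (SE 0.97, adjusted p = 0.00055), which was lost under 1 alternative. cdt-2 was larger by 6.01 (SE 1.16, adjusted p = 0.02), a call lost under 6 alternatives. gh3-8 was larger by 4.47 (adjusted p = 0.031), lost under 13, and gh3-7 by 2.93 (adjusted p = 0.047). The other genes with a symbol listed for the pentose and cellodextrin paths, xyk-1 and cdt-1, did not pass. They had differences of 2.79 (adjusted p = 0.053) and 1.71 (adjusted p = 0.46). gh10-2 and gh11-2 were larger by 7.10 (adjusted p = 0.053) and 6.21 (adjusted p = 0.12) and did not pass; with the 50-base libraries the adjusted p were 8.2e-05 and 0.001. The cellulases had a median difference of 1.04 with 0 of 11 called, and cbh-1 was at 114 ± 9.76 FPKM in wild type without carbon. The strains and the media differ together in this comparison, since no deletion library without carbon was analysed, and their parts cannot be told apart.

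**Figure D5:**
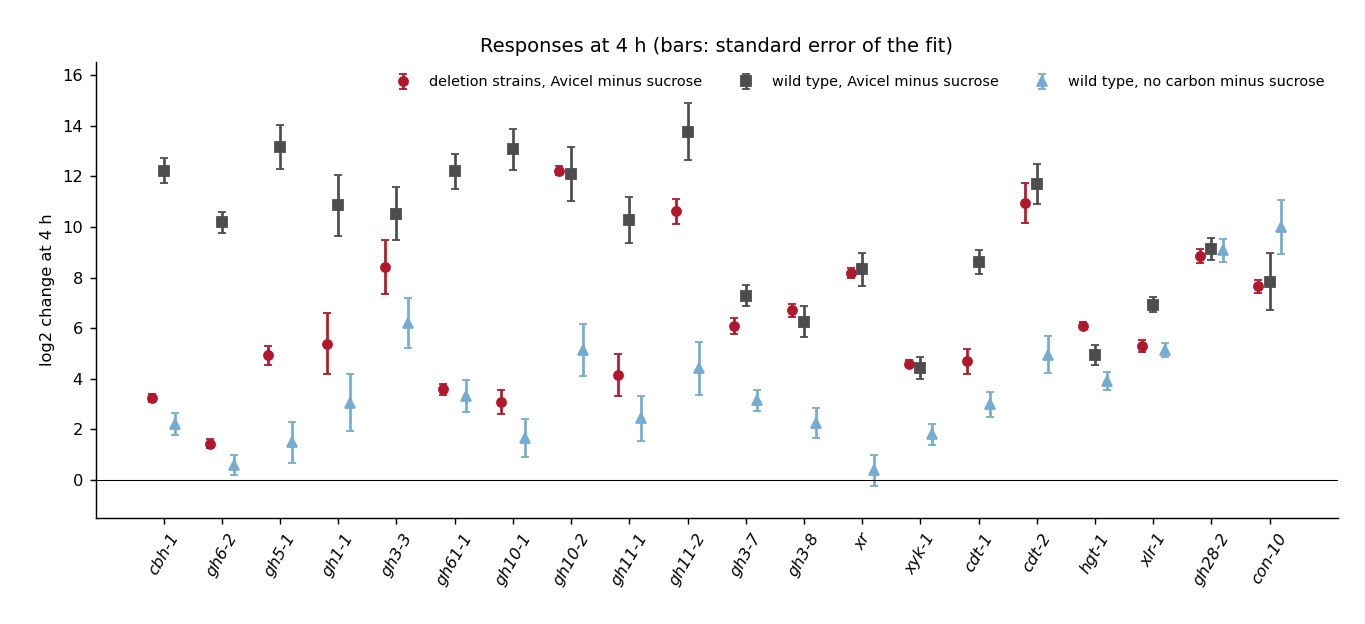
Log2 change at 4 h for 20 genes in the deletion strains on Avicel (red circles), in wild type on Avicel (dark squares) and in wild type without carbon (blue triangles), each against its own sucrose, with bars for the SE of the fit. cbh-1, gh6-2 and gh5-1 are far higher in wild type on Avicel than in the other settings. gh10-2, xr and cdt-2 are high on Avicel in the deletion strains and in wild type, and gh28-2 and con-10 are high in all 3.

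Some genes were high in all 3 settings. gh28-2, at 502 and 423 FPKM in the deletion strains on Avicel at 4 h, was at 564 ± 119 in wild type on Avicel and 565 ± 197 without carbon (SD, n = 3), with sucrose listed at 0 in each strain. con-10 rose by 7.65, 7.83 and 9.99, and ilv-2 changed by -7.38, -7.08 and -7.78. The 2 wild-type responses share their sucrose libraries. A few genes had a higher signed log2 change on Avicel in the deletion strains than in wild type. pre-2, a pheromone receptor gene, was at 194 and 198 FPKM on Avicel at 4 h against 1.30 and 2.74, and at 12.2 to 20.6 in wild type on Avicel with sucrose listed at 0. Its response was larger by 1.97 (adjusted p = 0.03) than in wild type with the pseudocount of 1, but by -0.72 with a pseudocount of 0.1; the call was lost under 12 alternatives, and its levels move with strain as those of the mating-type genes given above do; their part was not tested. aga-1, arginase, rose by 0.43 in the deletion strains and changed by -1.35 in wild type, a difference of 1.78 (adjusted p = 0.033) that was lost under 14 alternatives. un-4 fell less than in wild type, by a difference of 1.60 (adjusted p = 0.0018), lost under 1 alternative. For aln-1 the difference was 1.36 (adjusted p = 0.049), lost under 22 alternatives.

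Among genes without a symbol, NCU06895 rose by 10.86 at 4 h, from 1.43 and 1.62 FPKM to 5463 and 4036, and NCU05897 by 9.78 at 1 h, from 22.8 and 13.2 to 16747 and 15730. NCU03561 fell by 8.45 at 4 h and NCU05650 fell by 7.50 at 1 h. Other falls at 1 h by more than 5 log2 units were in cyt-19, a helicase for mitochondrial RNA splicing, un-18, a subunit of RNA polymerase I, and pho-5, a phosphate transporter. At 4 h pdx-1 of pyridoxine synthesis was at 194 and 131 FPKM against 13327 and 14054, ad-7 of purine synthesis at 5.2 and 4.96 against 338 and 471, and cel-1, fatty acid synthase, at 41.5 and 36.7 against 2187 and 1969. At 1 h their log2 changes were -2.62, -4.11 and -3.44.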

How the data were processed

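RNA was measured by sequencing of 8 deletion and 18 wild-type libraries. FPKM per transcript were deposited by the authors, computed with Cufflinks 0.9.3 after TopHat, per the submitters' processing notes; the genome build is not given in the sources used here. The deposited files also list a coverage signal and transcript lengths in bases, used only to recover reads (coverage × effective length / read length), which came out whole (within 0.02, under 200 reads) for 98.7% to 99.1% of transcripts in the deletion libraries. The titles' cdr1 and cdr2 are clr-1 and clr-2, by locus. FPKM of 9907 transcripts were summed to 9733 genes, 164 of them with more than 1 transcript; the reference table gives 1093 a symbol.

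limma 3.58.1 in R 4.3.3 fitted log2(FPKM + 1) with a trend, for genes whose mean reached 1 FPKM: 8 deletion libraries with strain as a term (3 residual degrees of freedom), or these with 12 wild-type libraries, or with 3 more without carbon. p-values are two-sided and Benjamini-Hochberg adjusted over all tested genes of a comparison. The pseudocount understates changes of low genes. Simulated data for the 4 h deletion comparison held 100 changed genes of each size among 8550 and no other change. There, 56% of changes of 1 log2 unit and 96% of those of 3 were recovered, with 8 false calls. Against wild type, 10% and 70% were recovered, with 7 false calls. Far more genes changed in the real deletion comparison, so these rates do not carry over to its calls.

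Members and the 28 gene lists (6 added after the files were read) were chosen with earlier results of these data known, and describe rather than support. Of 363 members first listed, 40 without a symbol in the reference table were left out, 1 had another symbol there and 12 were not found. Genes were named by rule: the deleted genes, the 10 largest called rises and falls per time with at least 10 FPKM, no overlap and a symbol, 3 per direction without one, the 5 largest per direction for the differences, and up to 4 members of highest level per list with all regulators; other members and stated exceptions were chosen after their values were seen. The authors' deposited tables of their own tests, on wild type, were not used. Same-numbered wild-type libraries on Avicel and sucrose deviated together at each time (r 0.125 to 0.285), so blocked counts stand beside the results they move.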

Additional observations from a re-analysis of the deposited data

Results flagged for a closer look

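The response to Avicel in the deletion strains differed between 4 h and 1 h for 3964 genes, by the test of the difference itself. The named genes that passed this test were eas (9.63), gh11-2 (6.56), gh3-8 (6.05), gh10-2 (4.96) and ccg-9 (4.89) with a higher log2 value at 4 h, and chol-1 (-4.77), inl (-4.70), ilv-2 (-4.65), arg-10 (-4.43) and leu-2 (-4.39) with a lower one.

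The response differed between deletion strains and wild type at 4 h for 128 genes. The named ones were pre-2 (1.97), aga-1 (1.78), un-4 (1.60) and aln-1 (1.36), larger or less negative in the deletion strains, and gh61-4 (-13.43), gh10-1 (-9.98), gh61-7 (-9.79), gh61-5 (-9.27) and cbh-1 (-8.98), smaller there. For gh61-4, listed at 0 in all deletion libraries, this value depends on the pseudocount and is no bound. The Avicel response of the deletion strains differed from the no-carbon response of wild type for 73 genes. Mating type moves with these strains and its part was not tested.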

How the results depend on the processing

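Pseudocounts of 0.1 and 10, filters, rescaling, no trend, no strain term and voom on recovered reads kept the counts within the deletion strains within 1.5 times. With the spread of all 26 libraries the counts were 4012 at 4 h, 3604 at 1 h and 469 for the difference in time; with the clr-1 deletion strain alone 2384, 1575 and 28, and with the clr-2 deletion strain alone 2644, 2286 and 23. Leaving out 1 library gave 5599 to 6439, 5240 to 6270 and 2657 to 3675; where this left 1 library, it was assumed to vary like the others. Against wild type at 4 h (128) the count was 193 with a pseudocount of 10, 38 and 33 with each strain alone, 1904 with the 50-base libraries and 54 to 228 without 1 library. The lowest came without either clr-1 deletion library of 4 h, the highest without sucrose replicate 1 of wild type at 4 h, and 70, 73 and 223 came without clr-2 deletion Avicel 4 h, clr-2 deletion sucrose 4 h and wild-type Avicel 1 h replicate 1. At 1 h (0) it was 4 with a pseudocount of 10, 4 with the replicate block, 1 with the clr-2 deletion strain alone, 777 with the 50-base libraries and 0 to 2 without 1 library. Against wild type without carbon (73) it was 5 and 7 with each strain alone, 1342 with the 50-base libraries and 11 to 169 without 1 library: 19, 11, 15 and 17 without the 4 h library of the clr-1 deletion on Avicel, on sucrose, and of the clr-2 deletion on each, 138, 136 and 169 without wild-type replicate 1 of Avicel 1 h, Avicel 4 h and sucrose 4 h, and 44 and 42 without replicate 3 of no carbon and of sucrose 4 h. The replicate block in wild type gave 192 at 4 h and 112 against no carbon. With a pseudocount of 0.1 pre-2 reversed, to -0.72 against wild type and -0.81 against no carbon, with sucrose at 0 in wild type. Rescaling moved the median of all genes at 1 h from 0.28 to 0.16 and of the difference in time from -0.01 to 0.10. Of 56 list medians, 3 changed sign under an alternative: complex I and the proteasome at 1 h, and grp78 at 4 h. The promoter motif count was not run. The causes of these shifts were not tested.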

Other observations

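Cell wall protein genes were mixed: of 17, 5 rose and 9 fell at 1 h. At 4 h 7 rose and 6 fell, near the 43.7% and 31.8% of all tested genes. In the fit over 26 libraries 1 rose and 1 fell at 1 h, and 4 rose and 4 fell at 4 h. acw-10 was at 274 and 273 FPKM on Avicel at 1 h against 431 and 460 and at 3064 and 3463 at 4 h against 304 and 277, whereas ncw-2 was at 534 and 479 at 4 h against 5393 and 3941. Of 6 housekeeping genes, 3 fell and 1 rose at 1 h and 4 fell at 4 h, or 1 and 1, and 2, in that fit; the translation factor gene tef-1 was at 37629 and 38860 FPKM on Avicel at 4 h against 153536 and 149248, and the histone gene hH4-1 did not pass at either time. In the clr-2 deletion strain NCU09968, NCU09969 and NCU11930 were listed at 0 on both media at both times. They were picked for this after their values were seen. The clr-1 deletion strain had 59.0, 12.1 and 36 FPKM on Avicel at 1 h and 83.2, 19.1 and 52.4 at 4 h. On sucrose that strain had 111.9, 23.9 and 72.7 FPKM at 1 h and 65.9, 15.6 and 38.5 at 4 h.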
